A study of Mus musculus with 6 samples.

Results

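Myc and 35 genes for proteins that build ribosomes in the nucleolus were followed in fibro-adipogenic progenitors (FAPs) given C1q or vehicle. The 36 genes were taken by symbol, from a list that names Myc and nucleolar ribosome assembly factors, and all 36 were among the 16671 genes of the deposited table. The cells are mesenchymal stromal cells of skeletal muscle, sorted by flow cytometry from hindlimb muscles of wild type mice aged 4 to 5 months. The 3 control libraries came from cells given vehicle and the 3 C1q libraries from cells given C1q, the recognition protein of the classical complement pathway, at 100 µg/ml. How long the cells were exposed is not given in the sources used here. The labels do not say whether replicates were separate mice or cultures, and the spread that p-values measure may therefore be technical.

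Ribosomes are assembled in the nucleolus, where RNA polymerase I transcribes ribosomal DNA into a long precursor RNA. Small nucleolar ribonucleoproteins (snoRNPs) modify that precursor, nucleases cut it, and assembly factors fold it together with ribosomal proteins into a small and a large subunit. MYC, a transcription factor that pairs with MAX on the DNA motif called the E-box, is known as a main activator of the genes for this machinery, and growing stromal cells use it to match protein synthesis to growth.

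The libraries held 5379209 to 38861152 reads on genes, and control replicate 3 was the shallowest. It held 57 to 2437 reads of each of the 36 genes, so its values are the least precise, and without it 27 of the 36 were called lower. The share of all genes called lower in that fit is not given here. Of 12 FAP markers measured, 8 were higher with C1q and 0 lower, and all 12 were detected in every library. Ly6a, Cd34, Col3a1 and Mfap5 were not called. The summed level of the 12 was 435135 to 558661 normalised counts in controls and 765256 to 953872 with C1q. Col1a1 and Col3a1 made the largest parts of that sum. Markers of muscle fibres were called lower at 6 of 10 genes and higher at 1, with summed levels of 94767, 51184 and 24342 in control replicates 1, 2 and 3 and 14044 to 21776 with C1q. Of 9 measured markers of muscle stem cells and myoblasts, 4 were lower (Myod1, Myf5, Myog and Cdh15) and 1 higher (Vcam1). The sums over the 9 were 10177 to 24748 in controls and 10774 to 12635 with C1q. Des and Vcam1 made the largest parts of those sums. Myod1 was at 1386, 686 and 451 in control replicates 1, 2 and 3 and at 236 to 271 with C1q. Myog was at 2356, 1269 and 718 in the same controls and at 438 to 528 with C1q. Pax7, the stem cell marker, was at 0 in control replicate 3 and at most 7.58 elsewhere. Endothelial markers (8 measured) and macrophage and leukocyte markers (9) had 0 calls in either direction, with sums of 3911 to 12073 against 3602 to 8959 and of 170.1 to 289 against 212 to 638. Pecam1 and Cldn5 of the former and Adgre1, C1qa, C1qb, C1qc and Itgam of the latter were at 0 in at least 1 library. Fabp4 made the largest part of the endothelial sum, at 3256 to 10741 in controls and 2590 to 7658 with C1q. Tenocyte markers were higher at 3 of 6 genes and lower at 1 (16433 to 49512 against 68348 to 133250). Pericyte and smooth muscle markers were higher at 3 of 6 (2556 to 3001 against 4944 to 6654), as were Schwann cell markers (2967 to 5787 against 3821 to 4019), with Rgs5 and Sox10 among those at 0 in at least 1 library. Ncam1, not called, made the largest part of the Schwann cell sum. With the replicate number as a block, Emcn (adjusted p 0.0253) was called lower and Lyz2 (0.0056) higher, and Thbs4 (0.00128), Mkx (0.0116) and Myh11 (0.03) were called higher and Acta1 (0.0431), Myh4 (0.012) and Des (0.0464) lower in the other marker lists. The part of these markers in the values of the nucleolar genes was not tested.

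With C1q, 26 of the 36 genes were lower and 0 were higher (limma-trend, Benjamini-Hochberg adjusted p below 0.05 over all genes). Over all 16671 genes, 18.7% were called lower and 19.7% higher. The median log2 fold change of the 36 genes was -0.44, against 0.03 over all genes tested, and single genes ranged from -1.11 for Nhp2 to 0.25 for Tsr1. All 3 C1q libraries lay below all 3 controls at 29 of the 36 genes, an arrangement found at 25.4% of all genes, and 0 of the 36 had all C1q libraries above, as did 26.8% of all genes. Together the 36 genes took 0.217%, 0.232% and 0.209% of the normalised counts of the controls and 0.157%, 0.164% and 0.171% of those with C1q, each in the order of replicates 1, 2 and 3 that all later values follow. The lowest control library was therefore above the highest C1q library, and this also held without the abundant Ncl and Npm1 (0.13% to 0.136% against 0.0998% to 0.109%). In bulk RNA, fewer cells that express a gene and less of its RNA per cell cannot be told apart. Each value is a read number scaled by 1 factor for its library, so the total RNA or ribosome content of the cells was not measured.

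**Figure D1:**
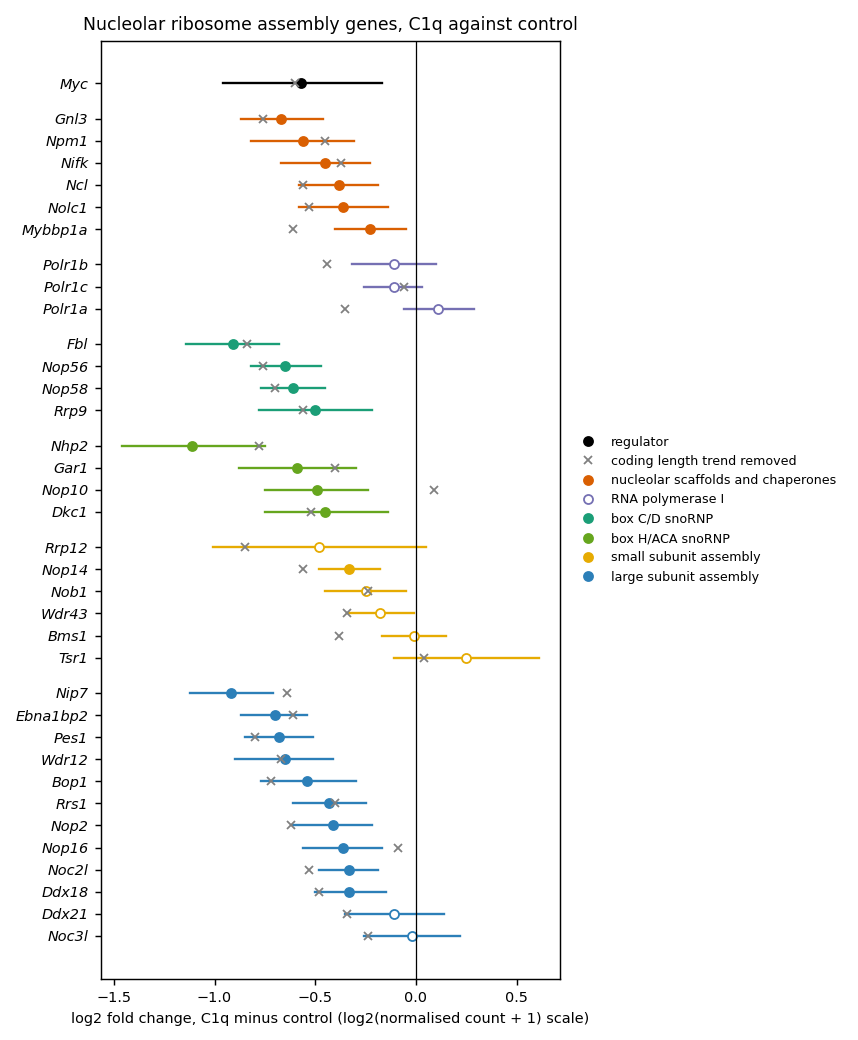
Log2 fold change of each gene (C1q minus control, on the log2(normalised count + 1) scale, horizontal axis) with its 95% interval from limma, grouped by role; filled circles were called at an adjusted p below 0.05, open circles were not, and grey crosses give the value with a trend on coding length removed. Every snoRNP protein and nucleolar scaffold lies left of 0, from -1.11 to -0.23, while the 3 RNA polymerase I subunits lie between -0.11 and 0.11.

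Control replicate 1 was the library with the most muscle fibre signal, and without it 24 of the 36 genes were lower, with a median of -0.41. Summed muscle fibre markers were 3.89 times as high in control replicate 1 as in control replicate 3. Over the 36 genes the same ratio had a median of 1.04 and ran from 0.838 for Nolc1 to 1.35 for Nhp2, apart from Rrp12 at 1.79. In 30 of the 36 genes every C1q library was below control replicate 3, the control with the least muscle signal. The share of all genes with that arrangement is not given here. The stricter one, below all 3 controls, was found at 25.4% of all genes. Of the 26 genes called lower, 19 were called in each of the 6 fits that left out 1 library. The shares of all genes called in those fits are not given here. Whether muscle signal has a part in the values of the 36 genes was not tested.

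Myc itself (gene ID 17869, on chromosome 15 from 61985341 to 61990361 in GRCm38) had normalised counts of 751, 1030 and 825 in control replicates 1, 2 and 3 and of 462, 680.3 and 625 with C1q. The groups did not overlap, but replicate 2 of the C1q group came close to the lowest control. The mean went from 868 ± 145 to 589 ± 113 (SD, n = 3), 1.48-fold lower. Its log2 fold change was -0.57 ± 0.17 (SE), and limma gave an adjusted p of 0.0331. The call was lost without control replicate 2 (adjusted p 0.0925), C1q replicate 1 (0.0873) or C1q replicate 3 (0.0632), and with a trend on transcript length removed (0.0575). It held in the other fits, including edgeR (0.0277) and DESeq2 (0.00774) on the recovered reads.

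Among 12 other genes of the MYC and MAX network, 4 were lower and 2 higher, with a median of -0.03. Mycl, the L-MYC paralogue, was at a low level and fell from 63.9 ± 14.5 to 19.6 ± 7.96 (log2 fold change -1.72, adjusted p 0.00878). Mlx, a MAX-like partner protein, fell by 0.55 on the log2 scale (adjusted p 0.0032). Max, the obligate partner of MYC, went from 1978 ± 82.1 to 1741 ± 29.8 (-0.18, adjusted p 0.0468), a call lost in each of the 6 fits without 1 library (adjusted p 0.0554 to 0.148), with the replicate number as a block (0.0575) and with DESeq2 (0.0944). Mxd4, a repressor that competes with MYC for MAX, rose from 1360 ± 142 to 1747 ± 131 (0.36, adjusted p 0.0189, but 0.0558 without control replicate 1, 0.0744 without C1q replicate 2 and 0.107 with the transcript length trend removed). Mga, a large repressor of the network, rose from 1600 ± 254 to 2817 ± 159 (0.83, adjusted p 0.0013), but removing a trend on coding length left it at 0.20 (adjusted p 0.143). The repressor genes Mxi1 and Mnt were not called, at 0.10 and 0.09 (adjusted p 0.533 and 0.283), though Mxi1 was at 0.23 (0.0435) without control replicate 3.

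The canonical E-box, CACGTG, reads the same on both strands, and RefSeq promoter windows (GRCm38.p6, 250 bases before to 50 after the annotated start site) were available for 30 of the 36 genes. The motif lay in the window of 5 of these 30 genes (16.7%), which are Pes1, Nop2, Mybbp1a, Wdr43 and Tsr1. It was in 11.1% of the 12371 genes of the deposited table that have a window, and in 7.15% of all 32851 windows. Of the 21 genes with a window that were called lower, 3 held it (14.3%). Windows of this size do not cover first introns or distant elements. The stretches of the 4 such genes with the lowest p are shown because they carry the motif that MYC is known to bind, with its distance from the start site given for each. For Wdr43 the distance is counted from the start site of its window, which lies downstream of the annotated gene start at 71616178. CACGTG is in capitals, all 4 genes are on the plus strand, and the stretches are chr11:3963725-3963982 (Pes1, motif at bases 3 to 8 of the transcript), chr6:125131633-125131882 (Nop2, motif 60 to 55 bases before the start), chr11:72441347-72441376 (Mybbp1a, bases 41 to 46) and chr17:71616220-71616249 (Wdr43, bases 18 to 23).
Pes1: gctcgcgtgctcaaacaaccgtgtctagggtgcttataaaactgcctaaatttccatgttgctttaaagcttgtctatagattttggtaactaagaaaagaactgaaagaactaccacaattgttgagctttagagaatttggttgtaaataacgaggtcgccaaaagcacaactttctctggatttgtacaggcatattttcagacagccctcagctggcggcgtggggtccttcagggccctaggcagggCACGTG
Nop2: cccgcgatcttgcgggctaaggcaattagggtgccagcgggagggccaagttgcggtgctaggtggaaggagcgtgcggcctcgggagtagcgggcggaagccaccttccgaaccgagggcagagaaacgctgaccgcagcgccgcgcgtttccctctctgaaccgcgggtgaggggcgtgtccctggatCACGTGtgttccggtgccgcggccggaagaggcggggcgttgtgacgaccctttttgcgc
Mybbp1a: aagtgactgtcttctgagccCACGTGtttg
Wdr43: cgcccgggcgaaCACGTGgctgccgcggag
These 5 genes did not move alike: Pes1 and Nop2 changed by -0.68 and -0.41, Mybbp1a by -0.23, Wdr43 was at -0.18 and Tsr1 at 0.25, the last 2 not called.

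Genes for nucleolar scaffolds and chaperones were lower at 6 of 6, with a median of -0.42, and in each of them the groups did not overlap. Npm1 encodes nucleophosmin, a chaperone that forms much of the outer layer of the nucleolus, and had the highest level of the 36 genes per length of coding sequence, 12512 normalised counts per kb in controls. Its counts were 9887, 12635 and 10360 in controls and 6875, 7939 and 7342 with C1q. The mean went from 10960 ± 1469 to 7386 ± 533 (-0.56, adjusted p 0.00567), and near-identical processed copies of Npm1 in the genome make its reads uncertain. Ncl, which encodes the RNA-binding protein nucleolin, stood at 8458, 8906 and 7643 against 6040, 6762 and 6361 (-0.38, adjusted p 0.00927). Gnl3 encodes nucleostemin, a GTPase found in stem and dividing cells, and was at 843, 845 and 837 in controls. With C1q it was at 473, 545 and 575, a change of -0.67 with an adjusted p of 0.00111, the largest of these 6. Nifk, a nucleolar partner of the Ki-67 protein, changed by -0.45 (adjusted p 0.00833) and Nolc1, a chaperone of snoRNPs, by -0.36 (0.0206, and 0.0621 and 0.0808 without C1q replicates 1 and 2). Mybbp1a, a Myb-binding protein of the nucleolus, had the smallest of these changes, -0.23 with an adjusted p of 0.0475, and its call was lost in 5 of the 6 fits without 1 library (adjusted p 0.0833 to 0.164).

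RNA polymerase I makes the ribosomal precursor RNA, and none of its 3 listed subunits was called. Polr1a, the largest catalytic subunit, was at 1282, 1125 and 1212 in controls and 1223, 1358 and 1334 with C1q, so the groups overlapped. Its log2 fold change was 0.11, with a 95% interval from -0.06 to 0.29. Polr1b, the second subunit of the core, was at -0.11 (-0.32 to 0.10), and Polr1c, which RNA polymerase III shares, at -0.11 (-0.26 to 0.03), with every C1q library of Polr1c just below the controls. In the main fit none of these intervals reached -0.44, the median of the 36 genes, but the spread behind them may be technical. The values were also not the same when a length trend was removed. With a trend on coding length removed, Polr1a was at -0.35 (adjusted p 0.00378) and Polr1b at -0.44 (0.00793), and with a trend on transcript length removed Polr1c was at 0.23 (0.0411).

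Of 12 further genes for RNA polymerase I subunits and initiation factors, 5 were lower and 2 higher (1 higher with the replicate number as a block), with a median of -0.21. The small subunit gene Polr1d, also shared with RNA polymerase III, fell from 1556 ± 69.9 to 1020 ± 37 (-0.61, adjusted p 5.57e-04). It was at -0.21 (0.0598) with the transcript length trend removed and at -0.23 (0.0469) with the coding length trend removed. Taf1d, of the promoter selectivity factor, fell by 0.92 (adjusted p 6.08e-04), Polr1e by 0.64 and Polr1h by 0.62, of which Polr1h was at -0.21 (adjusted p 0.216) with the coding length trend removed. The other genes of the selectivity factor did not fall with Taf1d. Taf1a was called higher (0.53, adjusted p 0.0434), and Taf1b (0.19) and Taf1c (-0.14) were not called. Taf1a, Taf1b and Taf1c were named after their values were seen. Rrn3, the factor that makes the polymerase competent to start, had means of 1291 ± 159 and 1061 ± 74.6, a change of -0.28 that missed the threshold (adjusted p 0.065, but 0.0111 with the coding length trend removed). Ubtf, which encodes the ribosomal DNA-binding protein UBF, was called higher at 0.23 (adjusted p 0.0344), a call lost in 5 of the 6 fits without 1 library (0.0624 to 0.13), and its value was 0.03 with the coding length trend removed.

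All 8 genes for snoRNP proteins were lower, with a median of -0.60, and in each the groups did not overlap. When the transcript length trend was taken out 5 of the 8 were lower, and Rrp9 (-0.25, adjusted p 0.12), Gar1 (-0.23, 0.184) and Nop10 (-0.06, 0.595) were not called. Box C/D snoRNPs guide 2'-O-methylation of ribosomal RNA, and Fbl encodes fibrillarin, their methyltransferase. Fbl counts were 1150, 1313 and 1059 in controls and 573, 633 and 660.4 with C1q, so the highest C1q library was far below the lowest control. The mean fell from 1174 ± 129 to 622 ± 44.7, 1.88-fold (-0.91 ± 0.10 SE on the log2 scale, adjusted p 5.57e-04). Nop56 and Nop58 encode the paired core proteins of the same particle. Nop56 was at 1055, 985 and 991 against 612, 641 and 685 (-0.65, adjusted p 6.32e-04). Nop58 was at 1310, 1297 and 1271 against 798, 854 and 899 (-0.61, adjusted p 6.18e-04). Differences between these genes were not tested, and with the transcript length trend removed Fbl was at -0.52, Nop56 at -0.48 and Nop58 at -1.16. Rrp9, a protein of the U3 snoRNP that acts in cutting the precursor, changed by -0.50 (adjusted p 0.0135, and 0.0558 without C1q replicate 2).

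Box H/ACA snoRNPs guide pseudouridine formation, and their 4 core protein genes were lower by unequal amounts. Nhp2 had the largest change of the 36 genes, from 580.4, 653 and 429 in controls to 249, 263 and 247 with C1q. It fell 2.15-fold (log2 fold change -1.11 ± 0.15 SE, adjusted p 0.00134), and the C1q libraries were much closer to each other (SD 8.87) than the controls (SD 114). Gar1 was at 241, 272 and 242 against 156, 158 and 188 (-0.59, adjusted p 0.00771). Dkc1, which encodes the pseudouridine synthase dyskerin, was at 614, 727 and 523 against 413, 475 and 469.9 (-0.45, adjusted p 0.0295). Its call was lost in 5 of the 6 fits without 1 library, with adjusted p of 0.0624 to 0.103. Nop10, the smallest protein of the particle, was at 830.3, 913 and 684 against 571, 582 and 558 (-0.49, adjusted p 0.0101). Its coding sequence of 192 nt is the shortest of the 36, and with a trend on coding length removed its value was 0.09, with an adjusted p of 0.398. Nhp2 kept a change of -0.78 (adjusted p 0.00343) under that treatment.

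**Figure D2:**
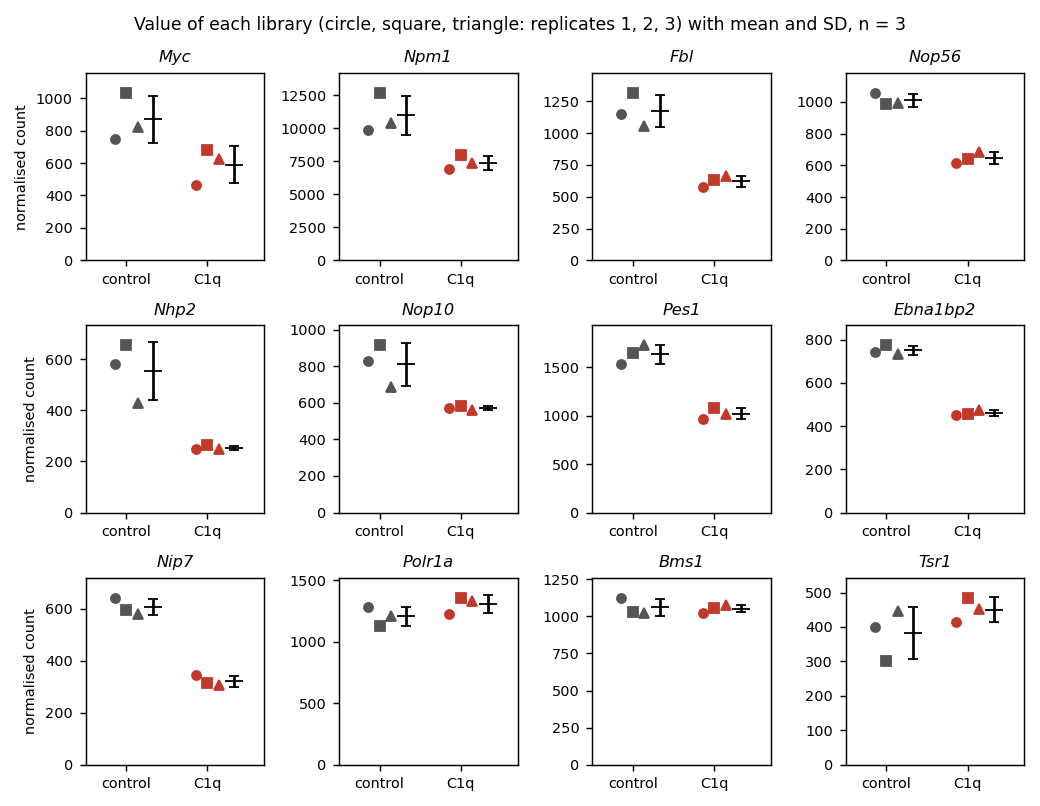
Normalised count of 12 genes in each library (vertical axis from 0; circle, square and triangle are replicates 1, 2 and 3), with the mean and SD of each group of 3 beside the points. For Fbl, Nhp2, Pes1, Ebna1bp2 and Nip7 the C1q libraries sit well below every control, for Myc the gap is small, and for Polr1a, Bms1 and Tsr1 the groups overlap.

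Factors of the 2 subunits differed in how many were called. For the large subunit 10 of 12 genes were lower, with a median of -0.42, and for the small subunit 1 of 6 was, with a median of -0.21. The latter share was near the 18.7% of all genes. With the coding length trend removed 4 of the 6 small subunit genes were lower, and with the transcript length trend removed 3 of 6, against 10 of 12 large subunit genes in both cases. Whether the subunits differ was not tested. Nip7, which acts in large subunit maturation, had counts of 643, 595 and 582 in controls and 344, 313 and 306 with C1q (-0.92 ± 0.09 SE, adjusted p 3.59e-04), 1.89-fold lower and the lowest p of the 36 genes. Ebna1bp2, an early large subunit factor, was at 743, 773 and 735 against 449.5, 457 and 474 (-0.70 ± 0.07 SE, adjusted p 4.08e-04). In both genes the spread within each group was small beside the distance between groups.

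Pes1, Bop1 and Wdr12 encode the 3 proteins of the PeBoW complex, which is needed to process the large subunit RNAs, and all 3 fell. Pes1 was at 1530, 1645 and 1722 in controls and 964, 1077 and 1017 with C1q (-0.68, adjusted p 5.64e-04). Wdr12 was at 509.9, 457 and 412 against 299, 299 and 275 (-0.65, adjusted p 0.00248). Bop1 was at 1429, 1135 and 1207 against 882, 800.2 and 909.9 (-0.54, adjusted p 0.00497). No PeBoW gene had a C1q library above a control. Rrs1, which helps load the particle that carries 5S RNA, was at 630.5, 632 and 638 against 444, 469 and 498 (-0.43, adjusted p 0.0037). Nop2, an rRNA methyltransferase, changed by -0.41, Nop16 by -0.36, Noc2l by -0.33 and the RNA helicase gene Ddx18 by -0.33 (adjusted p 0.00446 to 0.0123). Without C1q replicate 2 the adjusted p of Nop16 was 0.0543 and that of Ddx18 0.0537, and Nop16 was at -0.09 (adjusted p 0.41) with the coding length trend removed. The helicase gene Ddx21 and Noc3l were not called, at -0.11 (95% interval -0.35 to 0.14) and -0.02 (-0.26 to 0.22), and their groups overlapped.

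Of the small subunit factors, Nop14, a protein of the early processome, was called lower, from 949.8, 954 and 995 to 747, 755 and 804 (-0.33, adjusted p 0.00654). Nob1, the nuclease that makes the final cut of 18S rRNA, was at 496, 527 and 502 against 444, 449 and 394. Its groups did not overlap, but its adjusted p was 0.0559 (-0.25), and 0.0325 with edgeR. Wdr43, a processome protein, was at -0.18 (adjusted p 0.0812, and 0.0482 with edgeR). Bms1, a GTPase of the processome, was at 1125, 1031 and 1025 against 1024, 1056 and 1074 (-0.01, 95% interval -0.17 to 0.15), and Tsr1, a late factor, was at 401, 300.4 and 446 against 413, 485 and 451 (0.25, -0.11 to 0.61). The groups of both genes overlapped. Rrp12, an assembly and export factor, varied most among controls, at 433, 295 and 242 against 185, 265 and 232 (-0.48, adjusted p 0.137). Its order in the controls was that of the muscle fibre markers, as it was for 8 of the 36 genes in all (also Nip7, Nop58, Wdr12 and Ddx18, called lower, and Polr1b, Polr1c and Bms1). Rrp12 was at -0.25 (adjusted p 0.343) without control replicate 1 and called at -0.67 (0.0397) without control replicate 3. Whether that order bears on any of these 8 genes was not tested.

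The lists of further assembly factors give the larger frame, and none of their genes is among the 36. Over all genes, 18.7% were called lower and 19.7% higher. Of 45 other small subunit factors 20 were lower and 0 higher (44.4% lower, median -0.28). They included Imp3 (-0.83, adjusted p 3.59e-04), a U3 snoRNP protein, Pno1 (-0.82), Dcaf13 (-0.72) and Utp4 (-0.62). Of 43 other large subunit factors 24 were lower and 2 higher (55.8% lower, median -0.33). Mrto4, related to a ribosomal stalk protein, fell from 480.0 ± 74.7 to 235 ± 24.7 (-1.02, adjusted p 0.00141), Ccdc86 changed by -0.85, Rpf2 by -0.73 and Eif6, which keeps the subunits apart, by -0.73. The 2 higher genes were Ddx51 (0.64) and the long gene Mdn1 (0.41), which were named after their values were seen. Of 10 snoRNP assembly factors 5 were lower and 0 higher, among them the ATPase genes Ruvbl2 (-0.71) and Ruvbl1 (-0.33). With the transcript length trend removed Ruvbl1 was at -0.11 (adjusted p 0.266). Of 23 genes of the RNA exosome and RNase P/MRP 15 were lower and 0 higher (median -0.48), with Exosc3 at -0.78, Exosc6 at -0.71, Pop7 at -0.66 and Pop4 at -0.48. With the transcript length trend removed, 4 of these 23 were lower, with a median of -0.20, and Exosc3 (-0.33, adjusted p 0.0675), Exosc6 (-0.37, 0.0582) and Pop7 (-0.17, 0.304) were not called. The share of the 23 called lower was then near the 18.3% of all genes called lower in that fit.

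**Figure D3:**
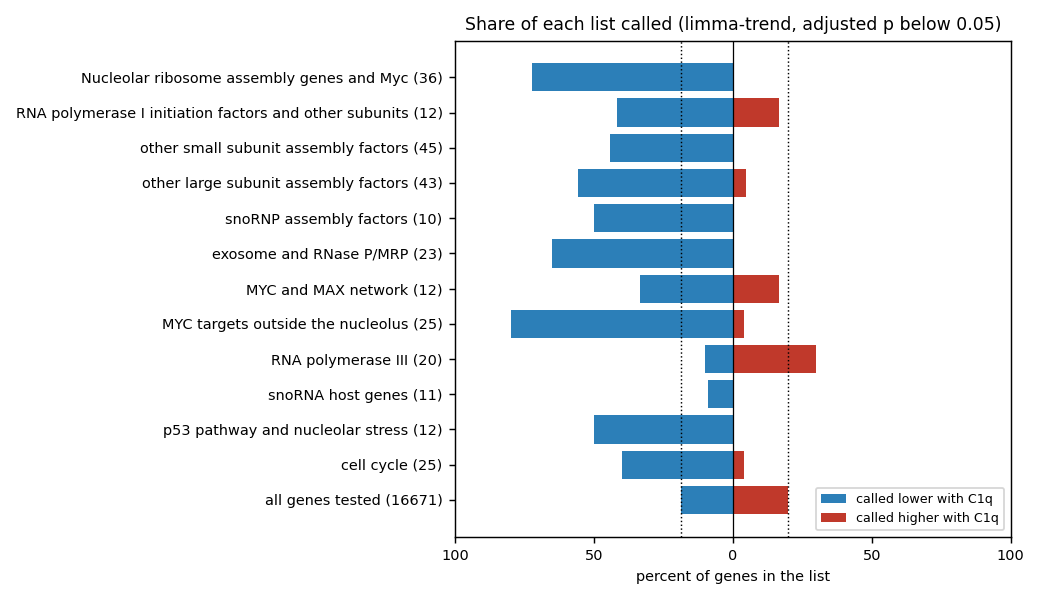
Percent of each list called lower (bars to the left) and higher (bars to the right) with C1q by limma-trend at an adjusted p below 0.05, with the number of measured genes in brackets; dotted lines mark the shares over all 16671 genes, 18.7% lower and 19.7% higher. MYC targets outside the nucleolus had the largest share called lower (80%), and RNA polymerase III genes and snoRNA host genes had shares below that of all genes (10% and 9.09%).

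Of 25 genes reported as MYC targets outside the nucleolus, 20 were lower and 1 higher, with a median of -0.58. Cdk4, a kinase of the G1 phase, fell from 7727 ± 859 to 3618 ± 194 (-1.09, adjusted p 2.72e-04). C1qbp, a mitochondrial protein also known as a binding partner of C1q, fell from 2073 ± 136 to 1000 ± 74.3 (-1.05), Srm, the spermidine synthase, from 1800 ± 107 to 879 ± 81.9 (-1.04), and Ran, the GTPase of nuclear transport, from 5926 ± 335 to 3074 ± 15 (-0.95). Odc1, the first enzyme of polyamine synthesis, went from 1160 ± 179 to 873 ± 29.9 (-0.40, adjusted p 0.0253), a call lost in 3 of the 6 fits without 1 library (0.059 to 0.0838) and with the transcript length trend removed (0.0936). The higher gene was Ccnd2, a G1 cyclin (0.68, adjusted p 0.0439), named after its value was seen. Of 20 RNA polymerase III genes, which make 5S RNA and transfer RNAs, 2 were lower, among them Polr3d (-0.55), and 6 higher, among them Bdp1 (0.60) and Gtf3c3 (0.52). With the coding length trend removed 5 were lower and 2 higher, with Bdp1 at 0.03 (adjusted p 0.835) and Gtf3c3 at 0.28 (0.0543). Of 11 host genes of small nucleolar RNAs 1 was lower, Snhg6 (-0.96, adjusted p 4.37e-04), and 0 were higher. Snhg5 and Snhg8 were not called, at 0.39 and -0.44, though Snhg5 was at 0.77 (adjusted p 0.00491) with the transcript length trend removed.

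Genes of the p53 pathway, which responds when ribosome assembly fails, were lower at 6 of 12 and higher at 0, with a median of -0.44. They included Bax, a promoter of apoptosis (2187 ± 242 to 928 ± 132, -1.24, adjusted p 3.83e-04), Trp53 itself (-0.42, adjusted p 0.00402), and the ribosomal protein genes Rpl5 and Rpl11 (-0.72 and -0.68), whose products bind MDM2. With the transcript length trend removed Rpl11 was at -0.11 (adjusted p 0.429). Mdm2 (-0.45, adjusted p 0.0321) and Cdkn1a (-1.40, adjusted p 0.0113) were also lower. Ccng1, Sesn2, Zmat3, Eda2r, Phlda3 and Cdkn2a were not called. From Mdm2 on, these genes were named after their values were seen. Cell cycle genes were lower at 10 of 25 and higher at 1, with a median of -0.34, and included Birc5 (-0.81), Plk1 (-0.67), Tyms (-0.62) and Pcna (-0.57). Mki67, the marker of cycling cells, was not called (0.33, adjusted p 0.081), and is named although its p was not among the 4 lowest. Whether cell cycle state has a part in the values of the nucleolar genes was not tested.

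Fold changes of the 36 genes varied with the length of the coding sequence, which is the measure of length used for the levels as well. Spearman's rho between coding length and log2 fold change was 0.64 across the 36 genes and 0.35 across 14655 genes, where genes of one library set share depth and preparation and are not independent. With transcript length in its place, rho was 0.37 across the 36 genes and 0.41 across 14934 genes. The 26 genes called lower had a median coding length of 1476 nt and the other 10 of 2487 nt. With a trend on coding length removed, 30 of the 36 were lower and 0 higher, with a median of -0.53, where 20.8% of all genes were lower. Of the original 26 calls 24 remained, all but Nop10 and Nop16, and Polr1a, Polr1b, Wdr43, Bms1, Rrp12 and Ddx21 were added. With a trend on transcript length removed in its place, 25 were lower and 1 higher (median -0.36), where 18.3% of all genes were lower. Of the 26 calls 21 then remained, all but Myc, Rrp9, Gar1, Nop10 and Nop16. The annotated transcripts of Ncl, Nop58 and Wdr12 reach 8202, 9507 and 10012 nt for coding sequences of 2121, 1608 and 1269 nt, so the second correction is uncertain for these genes. The genes called lower in each of the 20 alternative fits as well as the main one numbered 16: Ncl, Npm1, Gnl3, Fbl, Nop56, Nop58, Nhp2, Nop14, Nop2, Bop1, Pes1, Wdr12, Rrs1, Noc2l, Ebna1bp2 and Nip7.

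**Figure D4:**
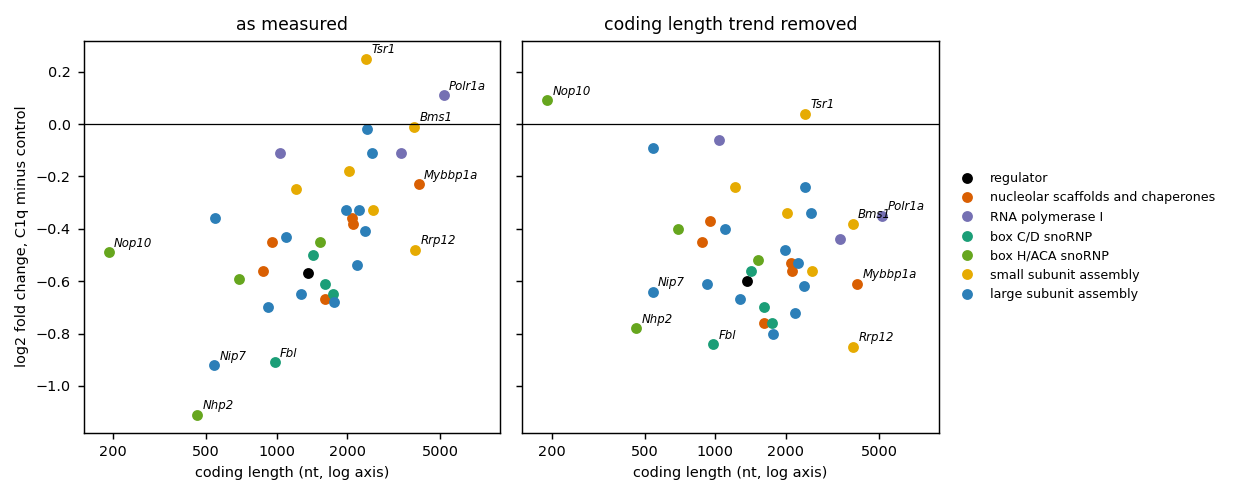
Log2 fold change of the 36 genes (vertical axis, C1q minus control) against coding length in nt (log axis), as measured on the left and with a trend on coding length over all genes removed on the right; each point is a gene, coloured by role. On the left Nop10 is at -0.49 and Polr1a at 0.11, and on the right they are at 0.09 and -0.35.

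Levels also differed widely among the 36 genes. Per kb of coding sequence, controls had 12512 normalised counts of Npm1, 4214 of Nop10 and 3930 of Ncl, and 83.2 of Rrp12, the lowest. With C1q these levels were 8431, 2971, 3012 and 58.5. For Nop10 the coding sequence is a small part of the transcript, 192 of 1109 nt. Exons on the opposite strand overlap 14 of the 36 genes, among them Nop56 (with Idh3b), Nhp2 (Rmnd5b), Bop1 (Mroh1), Wdr12 (Carf), Gnl3 (Pbrm1), Tsr1 (Srr) and Noc2l (Samd11). Whether counting used strand is not given in the sources used here, so reads of such pairs cannot be told apart. Fbl, Nop58, Npm1, Rrs1, Ebna1bp2 and Nip7 have no such overlap.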

How the data were processed

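RNA from 6 libraries, 3 per group, was sequenced after low-input cDNA synthesis from 10 ng of total RNA, per the labels' protocols, which speak of muscle stem cells at the extraction step although the cells are labelled FAPs. The deposited values are a normalised signal, which the file headers call featureCounts counts. From the values, they are the authors' reads on each gene scaled by 1 factor for each library. The submitters' processing notes name Trimmomatic, HISAT2, featureCounts, DESeq2 and the mm10 build, without versions, and the annotation is not given. In every library 100% of values were whole multiples of the value of 1 read within 0.001 of a read, so reads were recovered for count tests. On them edgeR called 3595 genes lower and 3351 higher of 14304 tested. A single read was worth 0.5827 to 4.251 units.

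Symbols came from a RefSeq table (GRCm38.p6) for 16077 of 16671 IDs. Lengths were taken from GENCODE vM21 on GRCm38. Transcript length (14934 genes) was that of the longest coding transcript, or of the longest transcript of any type where there was no coding one. Coding length was that of the longest coding sequence (14655).

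The test was limma-trend (limma 3.58.1, R 4.3.3) on log2(value + 1) without covariates, over all genes with a mean of at least 1 (all 16671), with Benjamini-Hochberg adjustment over all of them and a threshold of 0.05. It was also run on simulated counts with few changed genes and a fixed spread, a simpler setting than these data. Fold changes are on that scale and understate low genes. Intervals are limma's 95% intervals. The 36 genes and the 11 other lists were chosen with earlier results of these data known, so no list was tested as a set. Named genes were all 36, the up to 4 with the lowest p in each other list, and Max, Mxd4, Mxi1, Mnt, Odc1, Rrn3 and Ubtf in any case. Some single genes are not reported here.

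Alternatives were other pseudocounts and filters, edgeR 4.0.16 and DESeq2 1.42.0 on recovered reads, other scalings, the replicate number as a block, a loess trend on log length (span 0.5, fitted to genes with a mean of at least 20) removed, and leaving out each library. Coding length was added after seeing the data. Deviations of same-numbered libraries from their group means correlated at 0.1231, 0.1745 and 0.1315. Libraries with different numbers were not compared, so these low values do not establish pairing, and the labels state no shared batch. The main test keeps no block, and the blocked fit is an alternative, given where it changes a call. No 2 replicates agreed within sampling noise (chi-square per degree of freedom 17.6 to 42.9).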

Additional observations from a re-analysis of the deposited data

How the results depend on the processing

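Of the 36 genes, 26 were lower in the main fit and 20 to 28 in fits without a length term. Over all genes tested, 18.7% were lower in the main fit. The count was 28 with edgeR, where 25.1% of all genes tested were lower. It was 26 with DESeq2, and 20 to 27 when 1 library was left out, lowest without C1q replicate 2. The shares of all genes called with DESeq2, with a block or with 1 library left out are not given here. The median was -0.44 and ran from -0.50 to -0.39 with 1 library left out. Myc ran from -0.68 to -0.40 in those fits, with adjusted p of 0.0344 to 0.0925, and was past the threshold in 3 of the 6. With the replicate number as a block, 26 genes were lower as before, with no call among the 36 changed (of the named genes of other lists Max lost its call), and Myc had an adjusted p of 0.003. With a trend on transcript length removed, 25 were lower and 1 higher (Polr1c), the median was -0.36 and Myc was at -0.49. With the block as well, 24 were lower and 1 higher, with a median of -0.36. With a trend on coding length removed the median was -0.53, with or without the block. Over the 11 other lists 112 genes were lower and 14 higher. Higher calls numbered 5 to 13 with 1 library left out, 6 with the transcript length trend removed (7 with the block) and 5 with the coding length trend removed (7 with the block).

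Values changed sign in these cases, and the cause was not tested. With the transcript length trend removed, with or without the block, Polr1a was at -0.43, Polr1c at 0.23, Polr1h at 0.01, Ubtf at -0.00, Mxi1 at -0.16, Mnt at -0.13 and Snhg8 at 0.17. With the coding length trend removed, again with or without the block, Polr1a was at -0.35, Nop10 at 0.09, Max at 0.13 and Mnt at -0.03. Bms1 was at 0.03 without control replicate 1 and at 0.01 without C1q replicate 1. Noc3l was at 0.03 without control replicate 3 and at 0.06 without C1q replicate 1, and Mxi1 at -0.01 without control replicate 1. Over the 6 such fits Bms1 ran from -0.03 to 0.03, Noc3l from -0.09 to 0.06 and Mxi1 from -0.01 to 0.23. Small subunit factors outside the 36 were lower at 20 of 45 genes, and at 32 with the coding length trend removed. With the transcript length trend removed, lower calls went from 15 to 4 for the exosome and RNase P/MRP, from 5 to 3 for snoRNP assembly factors and from 2 to 4 for RNA polymerase III, and higher calls for the last went from 6 to 3. In that fit 18.3% of all genes were lower and 14.3% higher. With the coding length trend removed, lower calls in the MYC and MAX network went from 4 to 2. Control replicate 3, with 5379209 reads, limits the precision of every value.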

Other observations

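The genes whose levels followed Myc most closely within the groups were Msi1, Slfn10-ps, Olfm2, Pus1 and Vcl, among 10860 genes with a mean of at least 100. Pearson's r was 0.990 to 0.993 over 6 libraries after each group's mean was subtracted, which leaves few independent values, and the libraries share their depth with every gene compared. Of the nucleolar genes, Noc2l lay highest on this measure at 0.91 and Nip7 lowest at -0.78, although both were called lower with C1q. Pus1, a pseudouridine synthase, was itself lower with C1q (-0.44, adjusted p 0.0102), and Msi1 was at 0.30 (adjusted p 0.142). These correlations are descriptions of 6 libraries and were not tested.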
